A study of Mus musculus with 30 samples.

Results

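The mRNA of the mouse embryonic stem cell line CGR8 was compared between 2 h and 5 h of cycloheximide (CHX), an inhibitor of translation elongation, to ask which transcripts moved in the 3 h after the earliest response. The comparison rests on 6 of the series' 30 libraries, chosen by line and time: 3 replicates (A, B and C) at 2 h and 3 at 5 h. All 6 came from CGR8 cells with the genotype ROSA26 SLT knock-in, which every library of the series carries, including those at 0 h. The cells were kept in N2B27 medium with 2i and LIF, and CHX was given at 0.1 µg/mL. The other CGR8 libraries, at 0, 1 and 48 h, entered the fit and are given as levels where they bear on a gene, and the fibroblast line NIH/3T3, with the same genotype, dose and times, served for a test of the difference between lines. The labels do not say whether replicates came from separate cultures, or whether the line is 1 clone, so the p-values measure the spread between these samples only, which may be technical. No protein was measured in these files.

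When elongation is blocked, transcripts of short half-life can respond in several known ways. Immediate-early genes such as Egr1 and Fos are induced by growth factor signalling, and their mRNAs and the labile repressors that end their transcription are classic subjects of experiments with CHX. ATF4 drives amino acid transporters and synthetic enzymes when amino acids are short, SREBP2 drives sterol genes when sterols are low, and p53 drives Mdm2 and Cdkn1a. Each of these factors is itself turned over quickly. In mouse embryonic stem cells, LIF signalling through STAT3 and the factors Pou5f1, Sox2, Nanog, Klf4 and Esrrb hold the undifferentiated state.

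The 6 libraries held 22.5 to 27.2 M counts each. Levels are given as counts per M counts (CPM), with library totals scaled by TMM factors. The 6 genes that mark stem cells, Dppa5a, Tdgf1, Esrrb, Zfp42, Nanog and Pou5f1, lay between 408 and 2031 CPM in every library, and the 4 fibroblast markers summed to 0.444 to 0.785 CPM, with Col3a1 at 0 throughout. The 4 primitive endoderm markers summed to 1.64 to 2.62 CPM at 2 h and 1.21 to 1.78 CPM at 5 h. The 4 trophoblast markers, of which Eomes was the highest, summed to 15.6 to 19.9 CPM at 2 h and 5.89 to 6.54 CPM at 5 h. The 5 early differentiation markers, of which Otx2 was the highest, summed to 21.4 to 27.5 CPM and 24.9 to 26.2 CPM. Library 2 h A stood apart: its mean correlation with its own group was 0.981, the lowest of the 15 CGR8 libraries, and it was low in nuclear-retained noncoding RNAs (median relative log2 level -1.18) and in snoRNA host genes (-1.23). Among the 5 h libraries, 5 h B was the lowest in the same sets (-0.85 and -0.46). The libraries also differed in how a gene's level, relative to its mean over the 15 CGR8 libraries, followed transcript length. The rank correlations across genes, given as a description, were -0.36, 0.07 and -0.42 at 2 h and -0.58, -0.40 and -0.27 at 5 h, so that 5 of the 6 libraries were rich in short transcripts, and 2 h B was not. The part of these differences in the results below was not tested except where a value without a library, or with the length and GC trends removed, is given.

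Of 15933 genes tested with edgeR's quasi-likelihood test, 3051 (19.1%) differed between 2 h and 5 h at a Benjamini-Hochberg adjusted p under 0.05, which is what "called" means throughout. Of these, 1260 (7.91% of all tested) were higher at 5 h and 1791 (11.2%) lower. At least 2-fold changes were called for 605 genes (3.80%), of which 182 (1.14%) were higher and 423 (2.65%) lower. The median log2 fold change of all genes was -0.01. The 3 libraries of each time did not overlap for 27.5% of all genes tested, 12.0% being higher at 5 h and 15.5% lower. Of the 3051 called genes, 1301 (42.6%) kept the call and its direction when each of the 6 libraries was left out in turn. With library totals in place of TMM factors the split was 818 higher to 2430 lower, and the median of all genes moved to -0.10. A fit of the 6 libraries alone, which estimates the spread from them only, called 602 genes, and without 2 h B 1738 were called. Of the 3051 called genes, 601 kept the call in the fit of the 6 libraries alone. The 6 libraries correlated less with their own group (means of 0.981 to 0.988) than those at 1 h and 48 h (0.993 to 0.995). The main fit shares its estimate of the spread over all times, so its p-values may be too small for 2 h against 5 h.

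Among called genes whose groups were separate and whose higher group averaged 10 CPM or more, the largest fall was that of Egr1 (ENSMUSG00000038418.9), the zinc-finger transcription factor induced within minutes by growth factors. Egr1 stood at 28.9, 21.4 and 18.9 CPM in 2 h A, B and C, and at 0.577, 0.344 and 0.350 CPM at 5 h, where it was counted 7 to 13 times per library. The groups did not overlap, and the fitted log2 fold change was -5.75 ± 0.23 (SE, adjusted p = 3.5e-10 by edgeR). Its level was 1.12 ± 0.10 CPM (SD, n = 3) at 0 h and 45.6 ± 3.4 CPM at 1 h, so that the fall ended a rise that had passed its highest measured point before 2 h.

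The largest rise among genes that met the same conditions was that of Zfp296 (ENSMUSG00000011267.9), which encodes a zinc-finger protein expressed in pluripotent cells. Zfp296 was at 14.1, 13.0 and 11.4 CPM at 2 h and at 105, 98.1 and 80.6 CPM at 5 h. All 3 libraries at 5 h lay far above all 3 at 2 h (log2 fold change 2.88 ± 0.15, adjusted p = 7.9e-09). The same gene had fallen before: it was at 57.1 ± 9.0 CPM (SD, n = 3) at 0 h, 28.0 ± 2.6 at 1 h and 12.8 ± 1.4 at 2 h, and it reached 129 ± 10 CPM at 48 h. Zfp296 overlaps Gemin7 on the opposite strand in the reference, and whether the counting used strand is not given in the sources used here. Phf13, a chromatin reader named here after its values were seen, had the same shape at a lower level, with 31.4 CPM at 0 h, 12.7 CPM at 2 h and 30.4 CPM at 5 h as means of 3.

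**Figure D1:**
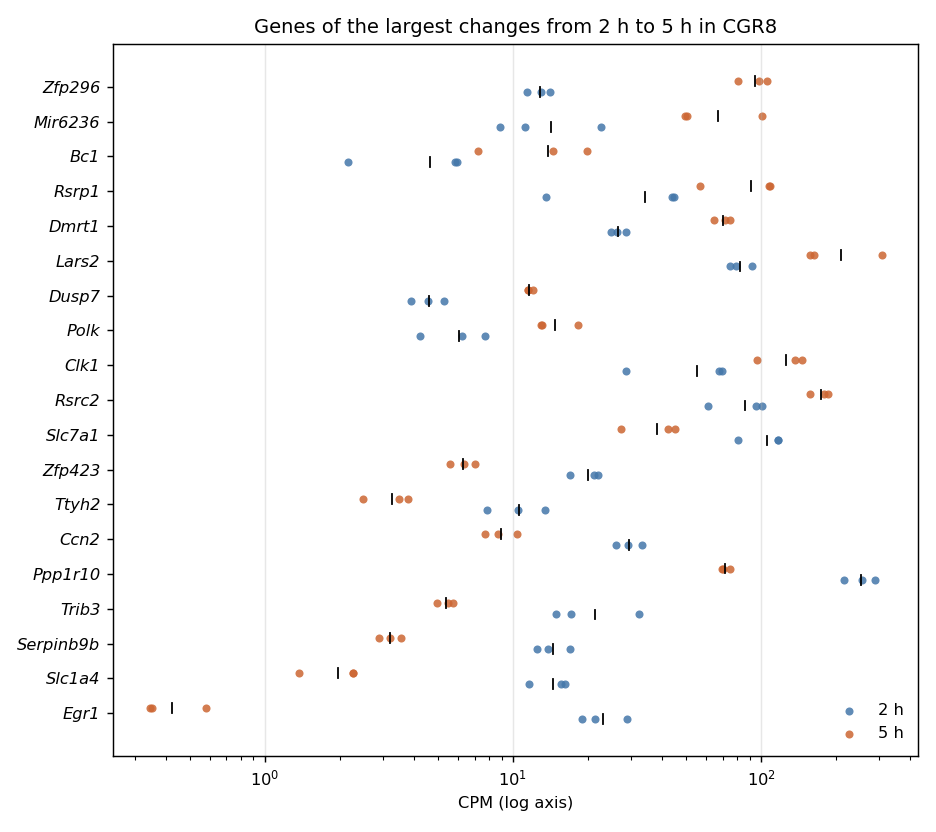
Levels in CPM (log axis) of 19 of the 20 genes that the rule on size names, ordered by fitted fold change. Each point is 1 library, blue for 2 h and orange for 5 h, and black ticks are group means. The groups do not overlap in any of these genes, which is part of the rule that chose them, and the 2 h A points of Rsrp1, Clk1 and Rsrc2 lie to the left of the other 2 h points.

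Dmrt1, a DM-domain transcription factor of germ cells, rose after a smaller rise by 2 h (0.39 ± 0.11 for 2 h against 0 h, adjusted p = 0.021 by edgeR). It was at 26.2, 24.9 and 28.5 CPM at 2 h and 75.2, 71.4 and 64.9 CPM at 5 h, with no overlap (log2 fold change 1.41 ± 0.11, adjusted p = 1.2e-06). At 0, 1 and 48 h its means were 20.3, 19.8 and 19.8 CPM, so that the 5 h group was by far the highest of the 5. Dusp7, a phosphatase of ERK, followed another course, from 12.1 CPM at 0 h through 4.56, 5.27 and 3.88 CPM at 2 h to 11.5, 12.0 and 11.5 CPM at 5 h. Its 5 h libraries returned to the 0 h level (1.35 ± 0.14, adjusted p = 3.2e-05 for 5 h against 2 h). Polk, which encodes a translesion DNA polymerase, rose from 4.22, 6.26 and 7.69 to 13.1, 13.0 and 18.3 CPM (1.28 ± 0.22, adjusted p = 1.1e-03).

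A separate set of rises was highest in 1 library. Mir6236 read 22.7, 8.88 and 11.2 CPM at 2 h and 50.1, 101 and 49.3 CPM at 5 h, and Lars2, a mitochondrial leucyl-tRNA synthetase, read 92.1, 79.0 and 74.7 against 157, 307 and 164 CPM. In both genes 5 h B was the highest library. The same library was highest for the noncoding RNA Bc1 (5.94, 2.16 and 5.83 against 14.6, 19.8 and 7.24 CPM) and for ENSMUSG00000119584, which has no symbol in the reference and was named after its values were seen (1713, 1060 and 1274 against 3966, 10673 and 3869 CPM). Without 5 h B the log2 fold changes of Mir6236 and Lars2 were 1.82 and 0.98 in place of 2.24 and 1.35, both still called. Bc1 was not called without 5 h A, without 5 h B or without 2 h B. What these RNAs share with that library was not tested.

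Among the falls, Ppp1r10 (ENSMUSG00000039220.17), which encodes a nuclear targeting subunit of protein phosphatase 1, was the largest of the genes above 100 CPM. It was at 254, 288 and 215 CPM at 2 h and at 70.0, 75.2 and 69.8 CPM at 5 h, after 147 CPM at 0 h and before 159 CPM at 48 h (log2 fold change -1.82 ± 0.11, adjusted p = 6.6e-08). The 5 h libraries thus lay below those of every other time. Zfp423, a zinc-finger factor of BMP signalling, fell from 22, 21.3 and 17 to 5.55, 6.33 and 7.04 CPM, and Serpinb9b, a serine protease inhibitor, from 17, 12.4 and 13.9 to 3.20, 3.53 and 2.88 CPM. Ttyh2, a membrane protein, fell from 13.5, 10.5 and 7.88 to 2.49, 3.78 and 3.46 CPM. Zfp423 was back at 23.7 CPM at 48 h, while Serpinb9b stayed at 2.77 CPM. Serpinb9b and Zfp423 had adjusted p of 9.4e-07 and 2.3e-06. The endothelin gene Edn1, seen afterwards, fell from 5.38, 5.62 and 4.86 to 1.38, 1.23 and 1.36 CPM.

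Immediate-early genes split. Of 38 listed, 32 were tested, 13 fell (40.6%, against 11.2% of all genes) and 5 rose (15.6%, against 7.91%), with a median log2 fold change of -0.32. The fallers besides Egr1 included Atf3 (2.50, 1.59 and 1.42 to 0.355, 0.491 and 0.389 CPM), Fos (2.37, 2.37 and 2.28 to 0.533, 1.33 and 1.01 CPM) and Jun (4.65, 3.75 and 2.95 to 1.95, 1.52 and 1.24 CPM), all transcription factors of the AP-1 and ATF families. None of these 3 overlapped between the groups. The YAP and SRF targets Ccn2 and Ccn1 were higher to begin with: Ccn2 went from 33.0, 29.0 and 26.0 to 10.3, 7.71 and 8.68 CPM (-1.72 ± 0.15, adjusted p = 3.6e-06), and Ccn1 from 25.4, 23.0 and 21.4 to 11.2, 11.4 and 9.41 CPM (-1.13 ± 0.12). Fos, unlike the rest, was not called by limma's voom with sample quality weights.

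The 5 immediate-early genes that rose were Id1, Junb, Btg2, Nr4a1 and Spry4. Id1, a BMP-induced inhibitor of helix-loop-helix factors, was at 1.59, 1.87 and 2.39 CPM at 2 h and 6.17, 5.40 and 4.63 CPM at 5 h (1.46 ± 0.23, adjusted p = 7.0e-04). Junb, a subunit of AP-1 and a target of STAT3, went from 17.3, 12.7 and 12.8 to 33.7, 29.5 and 27.7 CPM (1.09 ± 0.13, adjusted p = 8.0e-05), and the antiproliferative gene Btg2 from 16.2, 11.9 and 12.3 to 25.1, 23.8 and 24.7 CPM. In these genes, as in the fallers, the 2 groups were separate, which held for 12.0% of all genes in the rising and 15.5% in the falling direction. Nr4a1, an orphan nuclear receptor, rose from 18.1, 17.6 and 14.3 to 28.6, 24.2 and 27.5 CPM. Junb overlaps Prdx2 on the other strand. Myc was lower in every 5 h library but was not called. It was at 54.6, 52.4 and 44.3 CPM and then 37.2, 39.8 and 38.6 CPM (log2 fold change -0.39, edgeR adjusted p of 0.057). All but 2 of the 18 called members (16) kept their call without any 1 library.

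**Figure D2:**
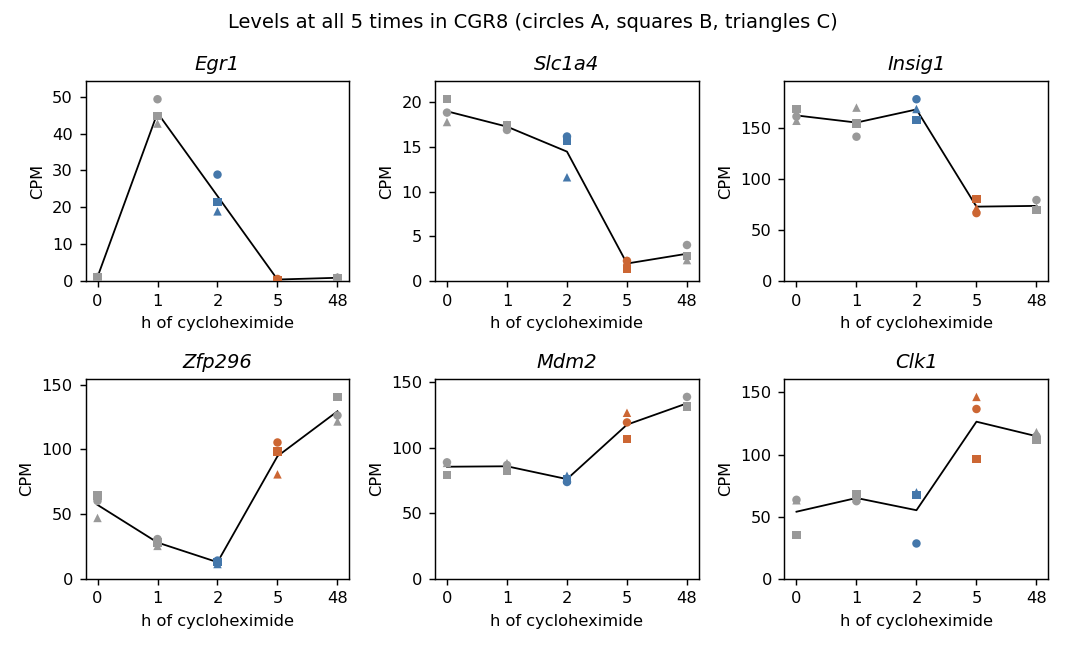
Levels in CPM (linear axis from 0) of 6 genes at the 5 times of CHX, which are spaced evenly and not to scale. Circles, squares and triangles are replicates A, B and C, the 2 h libraries are blue, the 5 h libraries orange, and the line joins the means. Egr1 is near 0 at 0, 5 and 48 h, Slc1a4 drops between 2 h and 5 h and stays low, Insig1 drops after 2 h and is at a like level at 48 h, Zfp296 has its lowest at 2 h, Mdm2 rises after 2 h, and in Clk1 the 2 h A circle lies at 28.4 CPM.

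Many ATF4 target genes fell, several amino acid transporters among them. Of 38 tested members 17 fell (44.7%, against 11.2% of all genes) and 2 rose, and the median was -0.40 (-0.51 to -0.26 when each library was left out in turn). Slc1a4 (ENSMUSG00000020142.13), a carrier of alanine and serine, was at 16.2, 15.7 and 11.6 CPM at 2 h and 2.27, 1.37 and 2.26 CPM at 5 h. No 5 h library came near the 2 h range (-2.87 ± 0.21, adjusted p = 9.4e-07), and at 48 h the mean was still 3.06 CPM. Slc7a1, a carrier of arginine and lysine, fell from 117, 118 and 80.9 to 27.2, 45.0 and 42.1 CPM (-1.47 ± 0.20), and Slc7a5, the light chain of the carrier of leucine, from 415, 332 and 257 to 183, 206 and 189 CPM (-0.80 ± 0.14). The glycine transporter gene Slc6a9 fell from 1.63, 1.34 and 1.38 CPM to 1 to 3 counts per library, which is too few for a fold change.

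Trib3, a pseudokinase that feeds back on ATF4, fell from 32.2, 17.1 and 14.9 to 5.73, 5.45 and 4.94 CPM (-1.99 ± 0.28, adjusted p = 3.0e-04), where 2 h A was the highest library. Mthfd2, an enzyme of mitochondrial folate metabolism, fell from 128, 84.4 and 81.9 to 42.3, 49.6 and 41.4 CPM. Gpt2, an enzyme of alanine synthesis, fell too (log2 fold change -0.85, adjusted p = 4.5e-04), and kept its call without any 1 library. A pair of enzymes of the list that were not called, named after their values were seen, are Asns, asparagine synthetase, at 940, 743 and 702 CPM and then 803, 849 and 720 CPM, and Psat1, of serine synthesis, at 806, 510 and 615 and then 588, 783 and 542 CPM. Their groups overlapped, and their adjusted p were 0.97 for each. Atf4 itself stood at 61.5, 65.5 and 69.6 CPM and then 86.5, 55.6 and 61.9 CPM, with overlap (0.05 ± 0.14). Of the 2 risers, Cebpg, a bZIP partner of ATF4, went from 19.0, 22.3 and 21.0 to 36.5, 37.8 and 41.7 CPM (0.90 ± 0.11, adjusted p = 1.2e-04), and the other was Slc38a2 (log2 fold change 0.53). The list's 2 h A level was the highest of the 6 (median relative log2 level 0.48, against 0.11 and 0.07 in 2 h B and C).

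ATF4 binds, as a dimer with C/EBP proteins, a composite element whose letters are TGATGNAA. In the RefSeq promoter table of GRCm38.p6, the 250 bases before the start site held it on either strand (TTNCATCA on the reverse) in 1134 of 32851 promoters (3.45%) and in 10 of the 33 list members with a promoter there (30.3%). The first share counts single promoters, whereas a list member counted if any of its promoters held the element, so the 2 shares are in unlike units. The element stood in 4 of 15 members that fell and in 5 of 17 other tested members. Chac1, Got1 and Nupr1, which held it and were not called, had log2 fold changes of -1.28, -0.40 and -0.60 (edgeR adjusted p of 0.070, 0.051 and 0.100). Their windows are left out. The 4 that fell are shown with Asns and Slc7a11, whose log2 fold changes were near 0 (-0.01 and 0.05). Each window holds 30 bases around the match, 5′ to 3′ along the gene, with the matching letters in capitals.
Vldlr, chr19:27216809-27216838, plus strand: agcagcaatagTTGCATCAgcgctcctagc
Jdp2, chr12:85599372-85599401, plus strand: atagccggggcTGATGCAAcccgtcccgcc
Herpud1, chr8:94386306-94386335, plus strand: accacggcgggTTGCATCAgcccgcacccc
Pck2, chr14:55540152-55540181, plus strand: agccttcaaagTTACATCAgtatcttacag
Asns, chr6:7693214-7693243, minus strand: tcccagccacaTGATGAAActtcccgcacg
Slc7a11, chr3:50443642-50443671, minus strand: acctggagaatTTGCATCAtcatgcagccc
Slc7a11 held 2 matches, of which 1 is shown. Vldlr, a lipoprotein receptor, was at 0.817, 0.884 and 0.971 CPM at 2 h and at 2 to 5 counts per library at 5 h, and Jdp2, a repressor of AP-1, went from 3.01, 2.30 and 3.40 to 1.42, 1.13 and 1.52 CPM. Herpud1 (10.1, 7.28 and 6.39 to 6.4, 5.06 and 5.64 CPM) and Pck2 (59.0, 39.2 and 40.3 to 33.8, 34.1 and 25.5 CPM) were only just called, with adjusted p of 0.047 and 0.0499, and each lost the call in 5 of the 6 fits with 1 library left out (all but that without 2 h C), and with RLE factors or voom. Slc7a11, the cystine transporter, was at 13.5, 6.90 and 10.3 CPM and then 10.2, 13.2 and 8.56 CPM, with overlap.

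Sterol genes fell and none rose. Of 25 tested, 12 fell (48.0%, against 11.2% of all genes), and the median was -0.35 (-0.37 to -0.26 with libraries left out). Without 5 h A, 7 fell. In the rising direction 0 members passed an unadjusted p under 0.05 with edgeR, and 0 were called by DESeq2 or by voom. Insig1, which retains the SREBP complex in the endoplasmic reticulum and is itself an SREBP target, was at 178, 157 and 168 CPM at 2 h and at 66.5, 80.5 and 71.4 CPM at 5 h. The groups were far apart (log2 fold change -1.21 ± 0.10). Of the enzymes of the pathway, Dhcr7 went from 107, 89.1 and 75.6 to 44.2, 53.6 and 46.9 CPM, and Hsd17b7 from 22.9, 23.6 and 23.2 to 10.3, 10.5 and 13.0 CPM. None of these 3 overlapped, and each kept its call without any 1 library. Insig1 had been at 162 CPM at 0 h and was still at 73.5 CPM at 48 h, as means of 3.

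Most p53 targets that changed were higher at 5 h. Of 22 tested, 10 rose (45.5%, against 7.91% of all genes) and 2 fell, Sesn1 and Zmat3, with a median of 0.29 (0.28 to 0.37 with libraries left out). Mdm2 (ENSMUSG00000020184.16), the ubiquitin ligase of p53, was at 73.8, 75.7 and 78.6 CPM at 2 h and 119, 107 and 127 CPM at 5 h (0.63 ± 0.09, adjusted p = 3.0e-04). Cdkn1a, the cell cycle inhibitor p21, went from 50.6, 49.5 and 43.7 to 69.7, 63.8 and 58.0 CPM (0.41 ± 0.11, adjusted p = 0.015). Both genes had separate groups. Bbc3, a pro-apoptotic BH3 protein, rose from 4.86, 3.82 and 3.03 to 6.66, 5.79 and 4.82 CPM, with overlap by 1 library, and was not called when 2 h B, 2 h C, 5 h A or 5 h B was left out. Sesn1 fell from 17.2, 16.9 and 18.6 to 10.9, 14 and 12.6 CPM, a call that was lost without 5 h A. Trp53 was at 554, 486 and 402 CPM and then 487, 497 and 442 CPM (-0.02 ± 0.12). Between 0 h and 2 h the list's median was -0.33, beside 0.01 for all genes, and both comparisons use the same 2 h libraries. Without 2 h B, 6 members rose in place of 10. In the fit of the 6 libraries alone 3 of the 12 called members, Mdm2, Btg2 and Polk, kept their call.

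Pluripotency factors moved both ways. Of 25 tested, 6 rose (24.0%, against 7.91% of all genes) and 5 fell (20%, against 11.2%), with a median of -0.16, which was 0.03 without 2 h A. The count of risers was 3 without 2 h A and 2 without 2 h B. The fallers were Prdm14 (41.2, 41.8 and 33.7 to 19.8, 22.7 and 25 CPM), Tbx3 (212, 207 and 165 to 108, 121 and 115 CPM), Tfcp2l1 (698, 932 and 643 to 303, 506 and 546 CPM), Esrrb (753, 717 and 532 to 408, 465 and 448 CPM) and Gbx2 (log2 fold change -0.59). These are transcription factors of the naive state, and Tfcp2l1, Gbx2 and Tbx3 are known LIF targets. Tfcp2l1 was not called without 2 h B or without 5 h A, and Gbx2 too lost its call with single libraries left out. In the fit of the 6 libraries alone 3 of the 11 called members, Prdm14, Tbx3 and Dppa3, kept their call. Nanog, Sox2, Klf4 and Zfp42 were not called: Nanog was at 775, 853 and 984 CPM and then 989, 959 and 1127 CPM, and Klf4 at 172, 175 and 135 and then 149, 165 and 163 CPM.

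The highest of the risers was Pou5f1, encoding OCT4, at 631, 655 and 828 CPM at 2 h and 1297, 995 and 809 CPM at 5 h. Its groups overlapped, with 5 h C below 2 h C, and the call (0.55 ± 0.15, adjusted p = 0.018) was lost without 2 h A, without 2 h B or without 5 h A. Dppa3, a maternal factor also called Stella, rose from 3.31, 2.33 and 2.95 to 6.80, 4.86 and 5.25 CPM (0.98 ± 0.19, adjusted p = 2.5e-03) and kept its call without any 1 library. The other 4, Fgf4, Dppa4, Tdgf1 and Dppa2, had log2 fold changes of 0.45, 0.44, 0.39 and 0.32, and of these Fgf4 alone kept the call without any 1 library. In the list of LIF and STAT3 signalling, with 15 tested, Junb rose and Pim1, Bcl3, Jak1 and Ptpn11 fell (6.67% higher, against 7.91% of all genes, and 26.7% lower, against 11.2%), and 2 fell without 2 h B, 2 without 5 h A, and 3 rose without 2 h A. Pim1, a kinase induced by STAT3, went from 78.3, 62.1 and 56.7 to 35.6, 37.5 and 33.7 CPM (-0.88 ± 0.13, adjusted p = 3.8e-04).

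Lineage markers did not move as 1 group. The trophoblast and mesendoderm factor Eomes fell from 15.6, 11.9 and 12.0 to 4.09, 4.27 and 4.86 CPM (-1.57 ± 0.15, adjusted p = 1.9e-05), Cdx2 from 4.04, 3.96 and 3.32 to 1.6, 1.47 and 1.44 CPM, and the mesoderm factor T from 3.57, 3.57 and 3.55 to 1.15, 1.37 and 1.09 CPM. The 3 genes were lower in every 5 h library. Lama1, a laminin of basement membrane, fell from 28.7, 41.7 and 27.9 to 12.0, 14.1 and 16.5 CPM. Against these, Ascl2 and Sox1 rose (log2 fold changes 1.01 and 1.05). Of the lists of other cell types, primitive endoderm had 1 riser and 2 fallers of 10 tested, trophoblast 1 and 2 of 7, and the formative and early differentiation list 2 and 1 of 11. Of 5 fibroblast markers tested, 1, Thy1, fell. Among all genes 7.91% rose and 11.2% fell, and lists of 5 to 11 tested members give counts too small to read against those shares. In bulk RNA, fewer cells that express a gene and less RNA per cell cannot be told apart.

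**Figure D3:**
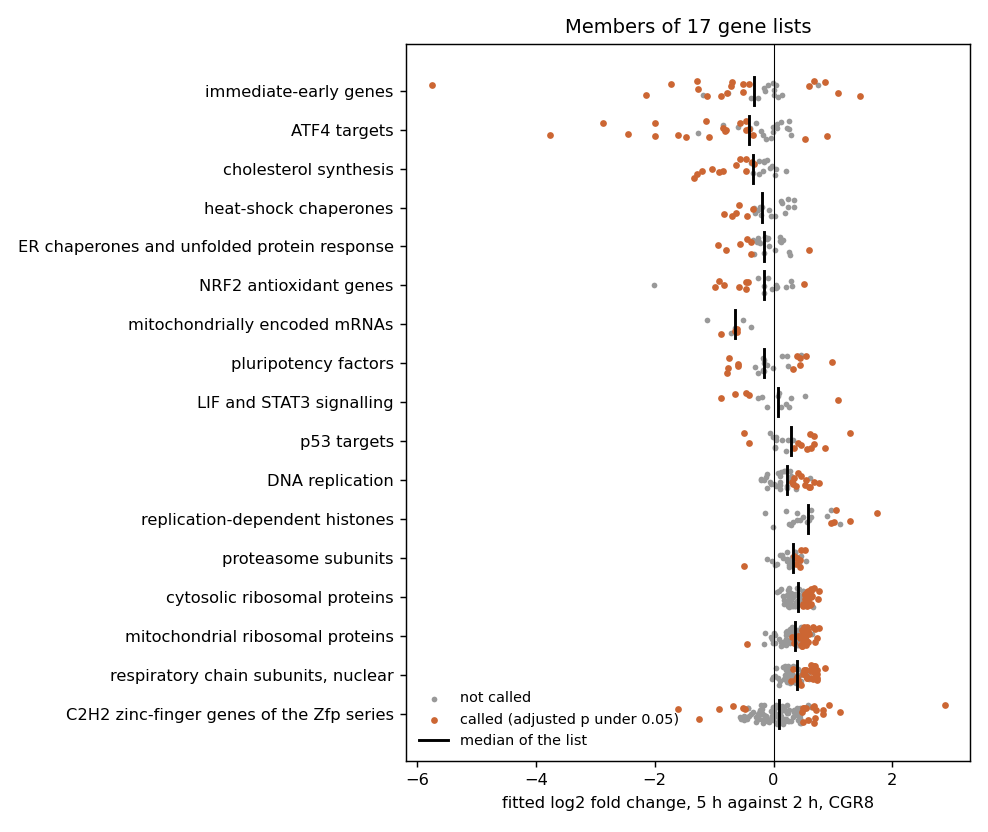
Fitted log2 fold change of each tested member of 17 lists, 5 h against 2 h, with called members in orange, others in grey and the list's median as a black bar. The spread within most lists crosses 0, the 12 called sterol genes all lie below it, and the called ribosomal protein genes lie in a narrow band between 0.49 and 0.77.

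Stress and folding genes mostly fell where they changed. Of 22 heat-shock chaperone genes 6 fell (27.3%, against 11.2%) and 0 rose by edgeR, DESeq2 or voom, with 1 rising at an unadjusted p under 0.05. Without 2 h A, and without 5 h A, 3 fell. In the fit of the 6 libraries alone 0 of the 6 called members kept their call. Hspa8, the constitutive cytosolic HSP70, went from 3818, 2172 and 2663 to 1819, 1642 and 1395 CPM (-0.83 ± 0.18, adjusted p = 4.5e-03), and the regulator Hsf1 from 40.4, 36.3 and 29.3 to 23.3, 22.9 and 24.2 CPM (-0.59 ± 0.11). In both genes 2 h A was the highest library and the groups were separate. Of 25 genes of endoplasmic reticulum chaperones and the unfolded protein response, 6 fell (24%, against 11.2%) and 1, Sec61b, rose (4%, against 7.91%). Without 5 h A, 3 of these genes fell. Hspa5, the chaperone BiP, fell from 638, 554 and 644 to 355, 378 and 325 CPM (-0.80 ± 0.10, adjusted p = 9.9e-05), Hsp90b1 from 347, 376 and 368 to 239, 246 and 253 CPM, and Xbp1, a transcription factor of the unfolded protein response, from 35.0, 28.0 and 25.8 to 17, 15.1 and 14.2 CPM (-0.94 ± 0.12). At 48 h all 3 were above their 2 h means, with Hspa5 at 835, Hsp90b1 at 733 and Xbp1 at 53.1 CPM.

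NRF2 antioxidant genes had 7 fallers (35.0%, against 11.2%) and 1 riser (5%, against 7.91%) of 20 tested. The median was -0.16 (-0.25 to -0.03 with libraries left out, the latter without 2 h A). The count of fallers was 5 without 2 h A, 2 h B, 5 h A or 5 h B. Hmox1, heme oxygenase, fell from 109, 88.2 and 81.8 to 50.3, 50.8 and 47.0 CPM (-0.91 ± 0.11, adjusted p = 7.1e-05), Gclm, of glutathione synthesis, from 112, 88.8 and 76.8 to 50.8, 52.9 and 52.8 CPM, and Srxn1 from 33.3, 19.8 and 20.6 to 14.5, 12.2 and 10.6 CPM. In these 3 genes 2 h A was the highest library. Of the 8 called members they alone kept their call in the fit of the 6 libraries. Nfe2l2, which encodes NRF2, did not follow the fallers: it was at 83.5, 90.0 and 81.2 CPM and then 85.3, 85.4 and 91.2 CPM (0.04 ± 0.11). The riser, Gsta4, was not called without 2 h B or without 5 h A. Of 41 autophagy and lysosome genes 7 fell (17.1%, against 11.2%) and 2 rose (4.88%, against 7.91%), and a pair of paralogs went in opposite directions. Gabarapl1, of the ATG8 family, fell from 26.1, 19.7 and 22.1 to 14.1, 13.5 and 11.3 CPM (-0.80 ± 0.14), and its relative Gabarapl2 rose from 203, 198 and 272 to 366, 335 and 299 CPM (0.57 ± 0.12). Counts were small for glycolysis (2 lower of 19, both glucose transporters), tubulins (1 lower of 12), aminoacyl-tRNA synthetases (2 higher and 2 lower of 23), the CCT chaperonin (1 higher of 8), decay factors of nonsense transcripts (1 and 1 of 14) and genes of the 2-cell-like state (0 of 7 by edgeR, DESeq2 or voom, or at an unadjusted p under 0.05). Among all genes 7.91% rose and 11.2% fell, and counts this small cannot be read against those shares.

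Genes of DNA replication rose without a faller. Of 40 tested, 12 rose (30%, against 7.91% of all genes), and the median was 0.22 (0.20 to 0.27 with libraries left out). Without 2 h B 6 rose, and without 5 h A 8. In the falling direction 0 passed an unadjusted p under 0.05 with edgeR, and 0 were called by DESeq2 or voom. Orc6, a subunit of the origin recognition complex, was at 150, 164 and 211 CPM at 2 h and 338, 271 and 285 CPM at 5 h (0.77 ± 0.12, adjusted p = 7.4e-04). Prim1, the primase, went from 118, 128 and 163 to 235, 202 and 218 CPM (0.68 ± 0.11). Both had separate groups, and 5 of the 12, among them both of these, Cdc6 and Tk1, kept the call without any 1 library. In the fit of the 6 libraries alone only 1 of the 12, Orc6, kept its call. Pcna (183, 181 and 218 to 268, 254 and 234 CPM) did not. Replication-dependent histone genes, whose mRNAs lack a poly(A) tail and are poorly caught by mRNA libraries, were low, with 5 of 22 tested called higher (22.7%, against 7.91%) and a median of 0.58 (0.36 to 0.81 with libraries left out, and 0.36 with length and GC trends removed). That count was 3 without 2 h B, 3 without 5 h A and 2 without 5 h B. Hist1h1a, a linker histone, went from 1.59, 1.80 and 2.58 to 3.73, 5.10 and 3.58 CPM. Of 34 genes of G2 and mitosis 0 rose by edgeR, DESeq2 or voom (3 at an unadjusted p under 0.05) and 4 fell (11.8%, near the 11.2% of all genes), among them Kif23 (113, 130 and 120 to 82.2, 82.1 and 96.0 CPM) and Cdc25b (23.0, 19.8 and 17.2 to 13.0, 13.6 and 13.9 CPM).

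Genes of the translation and respiration machinery were higher at 5 h by small amounts that differed between libraries. Of 76 cytosolic ribosomal protein genes 24 rose (31.6%, against 7.91%) and 0 fell, with a median of 0.41. No member fell at an unadjusted p under 0.05, nor by DESeq2 or voom. Of 78 mitochondrial ribosomal protein genes 29 rose and 1 fell (median 0.37), of 75 nuclear genes of the respiratory chain 33 rose and 0 fell (0.40), likewise with 0 by the other tools, and of 32 proteasome subunits 7 rose and 1, Adrm1, fell (0.32). Rpl3 was at 1550, 1350 and 1738 CPM at 2 h and 2843, 2154 and 1932 CPM at 5 h, and Rps21 at 529, 570 and 904 and then 1414, 1151 and 861 CPM. In Rps21 the groups overlapped, with 5 h C below 2 h C. Only 3 of the 76 ribosomal protein genes had separate groups (3.95%, against 12.0% of all genes in that direction). Many have near-identical pseudogene copies, and how their reads were assigned is not given.

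The 4 lists followed the libraries in 1 pattern, lowest in 2 h B and highest in 5 h A. For ribosomal protein genes the median relative log2 level was 0.01, -0.52 and -0.07 in 2 h A, B and C and 0.50, 0.26 and -0.15 in 5 h A, B and C. These transcripts are short, and 2 h B and 5 h A were the libraries that favoured short transcripts least and most. The libraries 2 h C and 5 h B had like rank correlations with length (-0.42 and -0.40) but ribosomal protein medians of -0.07 and 0.26. Why the libraries differed was not tested. With trends on length and GC removed, the median of the ribosomal proteins was 0.25 in place of 0.41 and that of the proteasome 0.16 in place of 0.32, that of the respiratory chain 0.21 in place of 0.40 and that of mitochondrial ribosomal proteins 0.24 in place of 0.37. In that fit 17 of 24, 2 of 8, 16 of 33 and 21 of 30 called members kept their call. With single libraries left out the medians of ribosomal proteins and proteasome ranged from 0.24 to 0.57 and from 0.20 to 0.41. Of the called members, 0 of 24 ribosomal protein genes, 1 of 8 proteasome subunits, 4 of 33 respiratory chain genes and 11 of 30 mitochondrial ribosomal protein genes kept their call without any 1 library, against 42.6% of all called genes. The number of ribosomal protein genes called higher was 8 without 2 h A, 0 without 2 h B, 0 without 5 h A, 13 without 5 h B and 44 without 5 h C. For the respiratory chain it was 16, 4, 7, 19 and 50 without the same libraries. For mitochondrial ribosomal proteins it was 11 without 2 h B, 15 without 5 h A and 50 without 5 h C, and for the proteasome 1, 2 and 18 without these, and 2 without 5 h B. The counts thus hung on single libraries, while the medians of the 4 lists stayed above 0 in each of these fits. Members that kept the call when each library was left out, though not in the fit of the 6 libraries alone, include Psmc6 (294, 301 and 353 to 416, 461 and 437 CPM), Ndufb3 (30.5, 33.0 and 42.9 to 69.3, 60.8 and 47.2 CPM) and Mrpl18 (174, 167 and 214 to 340, 318 and 246 CPM). Psmc6 was not called once the length and GC trends were removed.

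**Figure D4:**
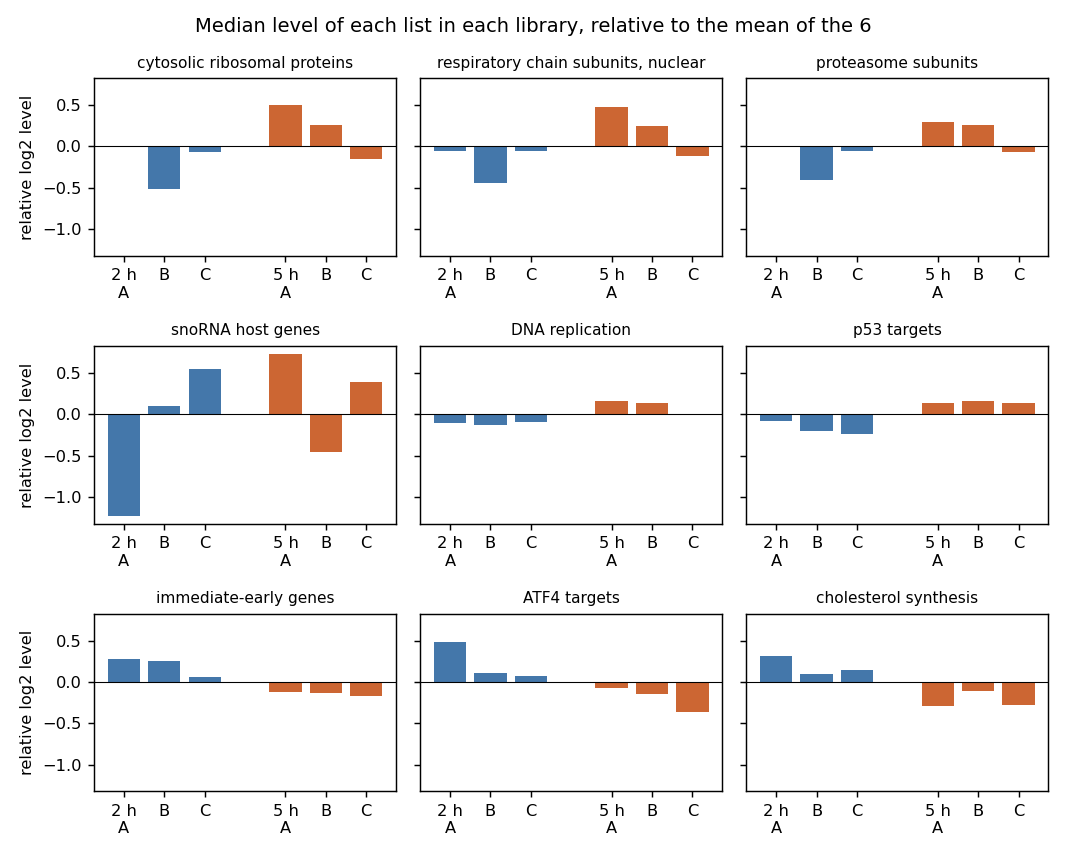
Median level of 9 lists in each of the 6 libraries, as log2 CPM relative to each gene's mean over the 6. Blue bars are 2 h and orange bars 5 h, in the order A, B, C. Ribosomal proteins, respiratory chain and proteasome share a low bar in 2 h B and a bar below 0 in 5 h C, snoRNA hosts fall to -1.23 in 2 h A, and the bars of p53 targets, immediate-early genes, ATF4 targets and sterol genes have 1 sign at 2 h and the other at 5 h.

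The mRNAs encoded by mitochondrial DNA went the other way. Of 9 tested, 0 rose by edgeR, DESeq2 or voom, or at an unadjusted p under 0.05, and 4 fell (44.4%, against 11.2% of all genes), with a median of -0.64 (-0.93 to -0.51 with libraries left out, and -1.02 with length and GC trends removed). The count was 1 without 2 h A, 2 h B, 5 h A or 5 h B, and 7 without 2 h C or 5 h C. mt-Nd1, a subunit of complex I, was at 1450, 1444 and 1075 CPM at 2 h and 656, 624 and 863 CPM at 5 h, with no overlap (-0.89 ± 0.18, adjusted p = 3.3e-03). mt-Co1, of complex IV, was at 1996, 2275 and 1565 and then 996, 1046 and 1749 CPM, where 5 h C lay within the 2 h range, and its call was lost when 2 h A, 2 h B, 5 h A or 5 h B was left out. Across the 6 libraries the list was highest in 2 h B and lowest in 5 h A and B, the reverse of the ribosomal protein genes.

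Splicing regulators included several risers. Of 31 SR proteins, hnRNPs and splicing kinases, 7 rose (22.6%, against 7.91%) and 1 fell, with a median of 0.08 that was -0.01 with library totals. Clk1 and Clk4, kinases that phosphorylate SR proteins and whose transcripts are held in the nucleus with introns, read 28.4, 67.6 and 69.6 against 137, 96.4 and 146 CPM, and 6.97, 17.9 and 15.1 against 31.9, 20.8 and 33.5 CPM. Each was lowest in 2 h A, the library that was also low in nuclear-retained RNAs. Among the 5 h libraries each was lowest in 5 h B, which was low in those RNAs too (median relative log2 level -0.85). Without 2 h A, the log2 fold change of Clk1 was 0.88 in place of 1.19 and was still called. Rsrp1, an arginine- and serine-rich protein, had the same order (13.6, 44.7 and 43.7 against 108, 56.9 and 108 CPM) and was not called without 5 h A, whereas Rsrc2 read 61.2, 101 and 95.5 against 180, 158 and 186 CPM (1.02 ± 0.16, adjusted p = 6.2e-04). Srsf7 rose from 470, 541 and 732 to 968, 1004 and 900 CPM and Srsf3 from 889, 766 and 930 to 1246, 1377 and 1162 CPM. The kinase Srpk2 fell from 37.3, 46.6 and 44.1 to 18.9, 20.3 and 24.2 CPM (-1.02 ± 0.13, adjusted p = 1.2e-04). In the fit of the 6 libraries alone, Srpk2 was the only 1 of the 8 called members that kept its call. Of 9 nuclear-retained noncoding RNAs and 12 snoRNA host genes tested, 0 were called by edgeR in either direction. DESeq2 called 2 snoRNA hosts higher and voom 1 nuclear-retained RNA lower, and 2 snoRNA hosts passed an unadjusted p under 0.05 with edgeR. Their libraries ranged widely: Malat1 read 8.69, 36.6 and 26.8 CPM at 2 h and 16.1, 14.4 and 40.7 CPM at 5 h.

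Of 50 genes of ribosome biogenesis 7 rose (14%, against 7.91% of all genes) and 3 fell (6%, against 11.2%). The median was 0.05, and -0.03 with library totals. The count of risers was 2 without 2 h B, 2 without 5 h A and 3 without 2 h A. Nop56, a core protein of box C/D snoRNPs, was the largest, with 521, 703 and 892 against 1416, 1087 and 1127 CPM. It holds snoRNA genes and overlaps Idh3b on the opposite strand. Among 116 tested zinc-finger genes of the Zfp series, 16 rose (13.8%, against 7.91%) and 6 fell (5.17%, against 11.2%), with a median of 0.09 that ranged from -0.10 to 0.22 as libraries were left out. Below Zfp296, the largest rises were Zfp354a (2.54, 3.25 and 3.17 to 5.02, 6.28 and 8.17 CPM) and Zfp189 (log2 fold change 0.93). Zfp516, which fell from 14.2, 15.3 and 12.8 to 3.86, 5.64 and 4.40 CPM (-1.61 ± 0.19), was the largest fall. The list was lowest in 2 h A (-0.39).

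Over the same interval NIH/3T3 fibroblasts changed at 3220 of 13941 genes (23.1%), and the difference between the lines was tested in 1 model of all 30 libraries. Of 17549 genes, 1290 (7.35%) differed in their change, 633 (3.61%) with the more positive change in CGR8 and 657 (3.74%) with the more negative. With library totals that split was 359 to 1149, and without CGR8 5 h C 1981 genes differed. The lines share no library. They differ in medium, and line and medium cannot be told apart.

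Of the 33 lists, the immediate-early genes had the highest share of members whose change differed between the lines. In the joint fit 25 of 36 tested (69.4%, against 3.61%) had a more positive change in CGR8 and 0 a more negative one, and in NIH/3T3 34 of 36 fell (against 12.5% of all genes there) and 0 rose by edgeR or at an unadjusted p under 0.05 (against 10.6%). For the difference, DESeq2 and voom also called 0 more negative, as did an unadjusted p under 0.05. Junb, which rose in CGR8, fell in NIH/3T3 from 523 to 718 CPM (the range of 3) at 2 h to 23.8 to 27.9 CPM at 5 h, and the difference of the log2 fold changes was 5.61 ± 0.22 (SE, adjusted p = 2.7e-16). Btg2 fell there from 148 to 156 CPM to 20.3 to 22.3 CPM (difference 3.74 ± 0.16) and Id1 from 187 to 228 CPM to 46.0 to 51.0 CPM (3.63 ± 0.24). The 5 h levels of Junb in the 2 lines were close (27.7 to 33.7 CPM in CGR8), while the 2 h levels were not. Fos differed by 3.08 ± 0.40. Egr1 fell in both lines, from 601 to 750 CPM to 5.15 to 6.37 CPM in NIH/3T3 (-6.81), and its difference was not called (1.09 ± 0.41, adjusted p = 0.11).

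**Figure D5:**
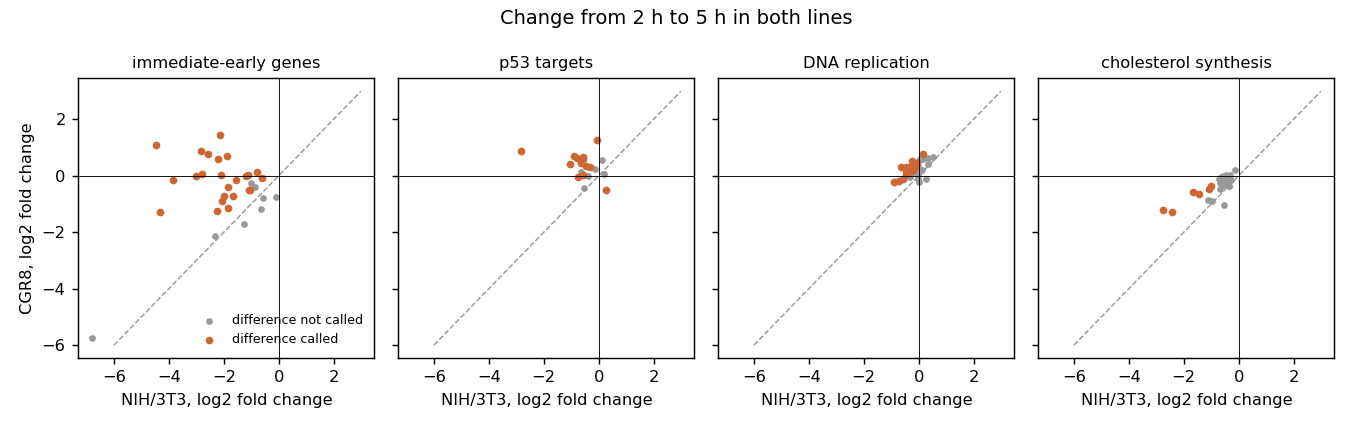
Fitted log2 fold change from 2 h to 5 h in CGR8 (vertical) against that in NIH/3T3 (horizontal) for members of 4 lists tested in both lines. The dashed line marks equal change, and orange points are genes whose difference was called. Most members of each of the 4 lists lie above the dashed line, and the isolated point at the lower left of the first panel is Egr1, with -5.75 and -6.81.

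For p53 targets, 12 of 23 (52.2%, against 3.61% of all genes) had the more positive change in CGR8 and 1 the more negative (4.35%, against 3.74%). In NIH/3T3 14 of 20 fell (against 12.5% of all genes there) and 0 rose by edgeR (against 10.6%, with 1 at an unadjusted p under 0.05). Mdm2 fell in NIH/3T3 from 212 to 253 CPM to 134 to 145 CPM, and Cdkn1a from 203 to 239 CPM to 103 to 108 CPM, against rises in CGR8 (differences 1.45 ± 0.11 and 1.5 ± 0.13, adjusted p = 8.7e-10 and 5.4e-09). The signs of the change were thus opposite in the 2 lines for both genes. Of 40 DNA replication genes, 16 (40.0%, against 3.61%) were more positive in CGR8, among them Pcna, at 131 to 164 CPM and 119 to 129 CPM in NIH/3T3 (difference 0.64 ± 0.15). More negative were 0 (against 3.74%) by any of the 3 tools or at an unadjusted p under 0.05. Of 24 sterol genes tested in NIH/3T3 20 fell there (against 12.5% of all genes), and 6 of 25 (24.0%, against 3.61%) had a more positive change in CGR8. Insig1 went from 59.0 to 70.8 CPM to 9.02 to 10.6 CPM in NIH/3T3 (difference 1.57 ± 0.14).

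Other genes moved less, or further down, in CGR8. Slc1a4 fell in both lines and more so in CGR8, since in NIH/3T3 it went from 64.3 to 79.5 CPM to 39.5 to 41.1 CPM (difference -2.03 ± 0.23, adjusted p = 5.8e-07). Serpinb9b rose in NIH/3T3, from 73.7 to 96.4 CPM to 118 to 125 CPM, and fell in CGR8 (-2.62 ± 0.19). Of 38 ATF4 targets 6 (15.8%, against 3.61% of all genes) were more positive and 7 (18.4%, against 3.74%) more negative in CGR8. Zinc-finger genes of the Zfp series, of which 67 of 105 rose (against 10.6% of all genes) and 0 fell by edgeR in NIH/3T3 (against 12.5%, with 2 at an unadjusted p under 0.05), had 24 of 116 members (20.7%, against 3.74%) with a more negative change in CGR8 and 1 more positive. Zfp251, for example, rose in both: from 4.43, 6.82 and 5.75 to 9.99, 10.2 and 10.2 CPM in CGR8, and from 2.51 to 3.56 CPM to 10.0 to 10.9 CPM in NIH/3T3 (difference -0.83 ± 0.20, adjusted p = 6.9e-03).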

How the data were processed

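RNA was sequenced from CGR8 and NIH/3T3 cells at 5 times of cycloheximide, 3 replicates each. Column-purified RNA went into a stranded mRNA kit by ligation, per the labels' protocols. The table the authors deposited holds unnormalized counts for 57186 gene identifiers. The submitters' processing notes name STAR, DESeq2 and GRCm39, and the counting tool, its use of strand and the annotation release are not given in the sources used here. All 30 columns were used. Symbols came from GENCODE M21 on GRCm38 (90.7% matched, version ignored), which also gave lengths, GC content and overlaps, and promoters from RefSeq on GRCm38.p6.

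Counts were fitted in R 4.3.3 with edgeR 4.0.16: 15 CGR8 libraries, 1 coefficient per time, TMM factors, filterByExpr (minimum count 10, total 15), quasi-likelihood F test of 5 h minus 2 h, with Benjamini-Hochberg adjustment over all genes. The difference between lines used all 30 libraries. CGR8 totals were 19.3 to 29.9 M counts. Low counts are the least precise, and reads were not counted as molecules. The test was run on counts simulated with the same spread at every time. Such counts cannot show how it does where the spread differs between times. Replicates differed beyond sampling noise (chi-square per degree of freedom 28.2 to 65.2), so none was counted together.

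Genes named are the 8 largest called rises and 8 largest falls, without overlap between the groups and with 10 CPM or more in the higher one, the 3 and 3 largest above 100 CPM, for each list the largest called rise and fall, and the 4 largest called differences between lines in each direction. Others, such as Insig1, Mdm2, Nanog and Asns, were chosen after their values were seen. One gene that the rule names is not reported here. Members and the 33 lists were chosen with earlier results of these data known. Alternatives were RLE factors, library totals, other filters, DESeq2 1.42.0, voom in limma 3.58.1, a replicate block, the 6 libraries alone, and each library left out. Removal of length and GC trends was added after seeing the data.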

Additional observations from a re-analysis of the deposited data

Results flagged for a closer look

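Of the genes whose change from 2 h to 5 h differed between the lines by a test of the difference itself (edgeR interaction), 1290 in all, the 8 largest by the naming rule stand out. More positive in CGR8 were Junb (difference of log2 fold changes 5.61), Btg2 (3.74), Id1 (3.63) and Mir6236 (3.59). Junb, Btg2 and Id1 rose in CGR8 and fell in NIH/3T3. Mir6236 did so too, and its highest CGR8 library was 5 h B, with 101 CPM against 50.1 and 49.3 CPM in the other 5 h libraries.

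More negative in CGR8 were Serpinb9b (-2.62), Neat1 (-2.26), Skida1 (-2.11) and Slc1a4 (-2.03). Skida1 was flat in CGR8, at 5.33, 6.65 and 6.16 CPM and then 5.51, 6.14 and 6.73 CPM, and rose in NIH/3T3 from 1.69 to 2.44 CPM to 8.2 to 9.53 CPM. Neat1, a nuclear-retained noncoding RNA, read 2.50, 7.96 and 7.10 and then 5.64, 2.01 and 7.51 CPM in CGR8, with an adjusted p for the difference of 0.044 that passed the threshold narrowly, and the call was lost without CGR8 2 h B, 2 h C, 5 h A or 5 h B, without any of 5 of the 6 NIH/3T3 libraries and with the replicate block.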

How the results depend on the processing

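Of 33 list medians under 15 alternatives, 441 values stayed within 1 SD of the list's medians by library, 45 moved by more and 8 moved by more and changed sign. The 2-cell-like list gave no value at a mean of at least 5 CPM. The number of called genes (3051) was 602 with the 2 h and 5 h libraries alone, which estimates the spread from 6 libraries, and 1738 without 2 h B. It ranged from 1738 to 3709 with single libraries left out, and elsewhere stayed between 2408 (voom) and 3345 (trends removed). Changes of at least 2-fold (605) numbered 123 at a mean of at least 5 CPM, 329 with the 2 h and 5 h libraries alone, and 491 to 786 with libraries left out. Called list members (284) numbered 67 in the fit of the 6 libraries, 144 without 2 h B, 166 without 5 h A, and 144 to 353 over all 6. Of the 20 genes named by size, 17 to 20 stayed called, depending on the alternative, and 18 to 20 with libraries left out. The share of called genes higher at 5 h was 41.3%, and 25.2% with library totals. Differences between the lines (1290, 49.1% more positive in CGR8) numbered 2684 by voom, 1981 without CGR8 5 h C, 956 to 1981 with libraries left out, and with library totals 23.8% were more positive, the median moving to -0.12.

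Medians that changed sign by more than 1 SD were those of ribosome biogenesis (-0.033) and SR proteins and hnRNPs (-0.0055) with library totals, and LIF signalling (-0.13) and formative markers (0.18) at a mean of at least 5 CPM. With single libraries left out, the median of LIF signalling ranged from -0.131 to 0.076 (-0.131 without 2 h C, -0.0904 without 5 h C), that of formative markers from -0.18 to 0.0105 (the latter without 2 h A) and that of pluripotency factors from -0.205 to 0.033 (the latter without 2 h A). Magoh, of the nonsense decay list, went from 0.41 to -0.029 with the length and GC trends removed. The cause was not tested. Replicate letters did not pair the libraries: same-letter deviations correlated at 0.19, -0.25 and 0.17 for A, B and C, and not every library correlated best with its own letter. With the letter as a replicate block 2869 genes were called, 577 of them at least 2-fold, with 257 list members, 20 genes named by size, and 1290 differences. Genes of few counts are limited by depth, as Vldlr and Slc6a9 at 5 h.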
